A study of Mus musculus with 6 samples.

Results

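Transcripts of 10 receptors of the TNF receptor superfamily were compared between naive CD8 T cells in which a Nur77-GFP reporter was bright (high) or dim (low). The members were Tnfrsf9, Tnfrsf4, Tnfrsf18, Tnfrsf1a, Tnfrsf1b, Tnfrsf14, Tnfrsf25, Tnfrsf26, Cd27 and Fas, and all 10 were found by symbol among 11162 listed genes. They were chosen by family name with the fold changes between these populations already known, so their values in this contrast are given as a description without a test. Both populations came from the spleen of mice of the genotype Nur77-GFP, Tg(Nr4a1-EGFP)GY139Gsat, in which regulatory sequence of Nr4a1 drives green fluorescent protein. The cells had been sorted as CD8+, CD44lo, CD62Lhi and Qa2hi, with OT-I, a transgenic T-cell receptor, named among the sorting markers of both groups, and then into Nur77-GFPhi cells (GFP-hi, 3 libraries) and Nur77-GFPlo cells (GFP-lo, 3 libraries). Age, sex and treatment of the mice were not stated in the labels, nor whether the libraries of a group came from separate mice, so every error given here measures only the spread between libraries, which may be technical.

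Receptors of this superfamily are membrane proteins with cysteine-rich outer domains that are bound by trimeric ligands of the TNF superfamily. Some, such as 4-1BB, OX40, GITR and CD27, recruit TRAF adaptor proteins, activate NF-kB and act as costimulatory receptors of T cells. Others, such as TNFR1, Fas and DR3, carry an intracellular death domain and can start apoptosis. CD27 is displayed by naive T cells, whereas 4-1BB and OX40 are known as receptors that appear after stimulation of the T-cell receptor. Nur77, the product of Nr4a1, is an immediate early protein of the same stimulation, and its reporter marks cells that have received such a signal.

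The libraries were between 26170000 and 35940000 reads deep, as recovered from the step of 1 read in the deposited values, and the depths of the groups overlapped. Levels are RPKM, reads scaled to transcript length and to library size, so levels of different genes can be set side by side per length. The 8 listed CD8 T-cell markers summed to 2212 to 2400 RPKM in GFP-hi and to 2264 to 2457 RPKM in GFP-lo libraries. The largest part was Cd8b1, at 785 to 839 RPKM. Cd3g was higher in every GFP-hi library (157, 172 and 161 RPKM) than in any GFP-lo library (142, 148 and 148 RPKM). The groups of the other listed CD8 T-cell markers overlapped. Nr4a1 (GFP-hi 56.6, 90.9 and 37.0, GFP-lo 63.1, 84.9 and 33.8 RPKM) and the GFP transcript (214, 262 and 215 RPKM against 216, 215 and 191 RPKM) overlapped between the groups and gave no check of the sort. Replicate 2 of each group stood apart by its heat-shock transcripts: Hspa1a was at 1100 RPKM in GFP-hi replicate 2 and at 1234 RPKM in GFP-lo replicate 2, against 152 to 235 RPKM in the other libraries. Values without these 2 libraries are therefore given beside several of the results. In bulk RNA, a difference in the number of cells that carry a transcript and a difference in its amount per cell cannot be told apart.

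All 10 members had a mean of at least 1 RPKM over the 6 libraries and entered the fit. Tnfrsf9, the gene of 4-1BB, was 5.57-fold higher in GFP-hi than in GFP-lo cells by the ratio of mean RPKM, whereas the other 9 members had ratios between 0.822 and 1.21. In the fit over 9351 genes (limma, Benjamini-Hochberg adjusted p under 0.05), 1 of the 10 members, Tnfrsf9, was called, against 3.95% of all genes tested. With trimmed mean of M values scaling 169 genes were called higher and 168 lower, against 230 higher and 139 lower with the values as deposited. The 3 libraries of one population all lay above those of the other for 2 of the 10 members, Tnfrsf9 and Fas, against 26.9% of all genes tested. The median log2 fold change of the members was 0.005, and that of all genes tested was 0.018. Since the members were picked with these values known, nothing is read from these counts.

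**Figure D1:**
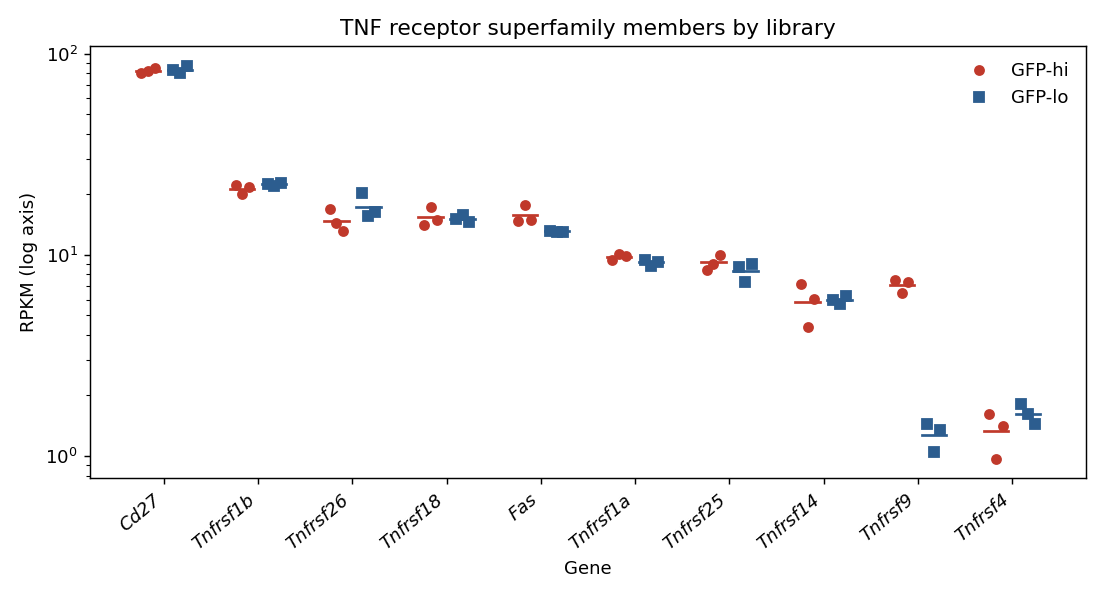
RPKM on a log axis of the 10 members in each library, ordered by mean level; points are libraries (red circles GFP-hi, blue squares GFP-lo) and bars are group means. Tnfrsf9 lies between 6.45 and 7.48 RPKM in GFP-hi and between 1.05 and 1.44 RPKM in GFP-lo libraries, while Fas is the only other member whose groups do not overlap.

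Tnfrsf9 (Entrez 21942) encodes 4-1BB, also called CD137, a costimulatory receptor that signals through TRAF proteins and supports the survival of CD8 T cells. It had 7.48, 6.45 and 7.37 RPKM in the GFP-hi libraries and 1.44, 1.05 and 1.34 RPKM in the GFP-lo libraries. All 3 GFP-hi libraries were high and all 3 GFP-lo libraries low, with no library between, at means of 7.10 ± 0.563 RPKM and 1.27 ± 0.205 RPKM (SD, n = 3 each). The lowest GFP-hi library was 4.49 times the highest GFP-lo library, and the highest was 7.16 times the lowest. At the recovered depths each kilobase of transcript held 212.8, 219.1 and 217 reads in GFP-hi and 51.7, 29.7 and 35.1 reads in GFP-lo libraries. The low level therefore still rested on reads in every library. On the log2(RPKM + 1) scale the fold change, given with its standard error (SE), was 1.83 (SE 0.089), with a 95% interval of 1.63 to 2.04. The scale understates the change of low genes, and with a pseudocount of 0.1 in place of 1 the fold change was 2.40. Without both replicates 2 it was 1.82. On the log2(RPKM + 1) scale no gene of the 9351 tested had a larger absolute fold change. By the ratio of mean RPKM, however, the tested genes Pclaf (15.6) and Ccnb2 (6.30) exceeded Tnfrsf9 (5.57).

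Tnfrsf9 lies on chromosome 4 (chr4:150920155-150946104, GRCm38.p6), and RefSeq gives it 2 starts. The 250 bases before each start were searched, and the first window and the kappaB stretch of the second (chr4:150927947-150927976) are printed because this is the member whose level differed most. Windows were searched on both strands for the NBRE, AAAGGTCA, to which Nur77 binds as a monomer, for AP-1 (TGANTCA), for the EGR site (GCGTGGGCG), for a core that NFAT binds (GGAAAA) and for the kappaB site that NF-kB binds. Capitals mark matches. The first window (chr4:150919905-150920154, plus strand) holds 1 NFAT match on the opposite strand, and the second (chr4:150927749-150927998, plus strand), which lies inside the gene as counted from the first start, holds 2 overlapping kappaB matches, 43 to 33 bases before the start, and 1 AP-1 match, 15 to 9 bases before it:
Tnfrsf9, before the first start: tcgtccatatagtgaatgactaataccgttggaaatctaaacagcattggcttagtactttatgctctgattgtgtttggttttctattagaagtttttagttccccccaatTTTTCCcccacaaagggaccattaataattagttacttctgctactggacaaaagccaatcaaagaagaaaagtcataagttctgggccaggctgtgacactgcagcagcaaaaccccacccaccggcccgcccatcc
Tnfrsf9, before the second start: agagcagctGGGGATTTCCCaggaggccct

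Of 32851 windows of the same length before RefSeq starts, 7.25% held a kappaB match, 6.75% an AP-1 match, 0.356% both, 20.4% an NFAT match, 1.34% an NBRE match and 0.536% an EGR match. Windows were found for 9 of the 10 members. Among these, the second Tnfrsf9 window was the only one with both a kappaB and an AP-1 match, and none held an NBRE or an EGR match. These are matches of letters only, and the deposited values do not show which start was used.

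The listed genes beside Tnfrsf9 were not called. Park7, the gene next to it on one side, had 29.5, 34.3 and 31.2 RPKM in GFP-hi and 29.5, 32.5 and 31.6 RPKM in GFP-lo libraries (log2 change 0.02, SE 0.069, adjusted p = 0.92 by limma). Errfi1, beyond it, had a log2 change of -0.19 (SE 0.078, adjusted p = 0.22 by limma). Per3, the neighbour on the other side, was at no more than 0.677 RPKM in any library and was not tested. Over all members, 28 listed genes that are not members lay among the 3 protein-coding genes on either side. Of these, 21 were tested and 1 was called, against 3.95% of all genes tested. The called gene was Acot7 near Tnfrsf25 (log2 change 0.83, adjusted p = 0.0013 by limma).

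By profile over the 6 libraries, the 5 genes most like Tnfrsf9 were Ccnb2, Stmn1, Rrm2, Top2a and Pclaf. Likeness was the root mean square difference of log2(RPKM + 1), centred per gene, which was 0.128 for Ccnb2, 0.154 for Stmn1, 0.265 for Rrm2, 0.284 for Top2a and 0.295 for Pclaf. The median over the other tested genes was 0.918, and the nearest other member was at 0.808. Ccnb2, the gene of cyclin B2, had 4.48, 4.001 and 4.26 RPKM in GFP-hi and 0.600, 0.621 and 0.799 RPKM in GFP-lo libraries. Stmn1, the gene of the tubulin-binding protein stathmin, was at 14.1, 12.8 and 14.1 RPKM against 3.84, 3.92 and 3.16 RPKM. Rrm2, a subunit of ribonucleotide reductase, was at 6.27, 5.16 and 6.54 RPKM against 1.61, 1.90 and 1.49 RPKM. For all 5 genes, as for Tnfrsf9, the 3 GFP-hi libraries lay above the 3 GFP-lo libraries, and GFP-hi replicate 2 was the lowest of the GFP-hi libraries. The genes were picked for likeness over these same libraries. The shared pattern therefore follows from the choice, and nothing is read from it.

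**Figure D2:**
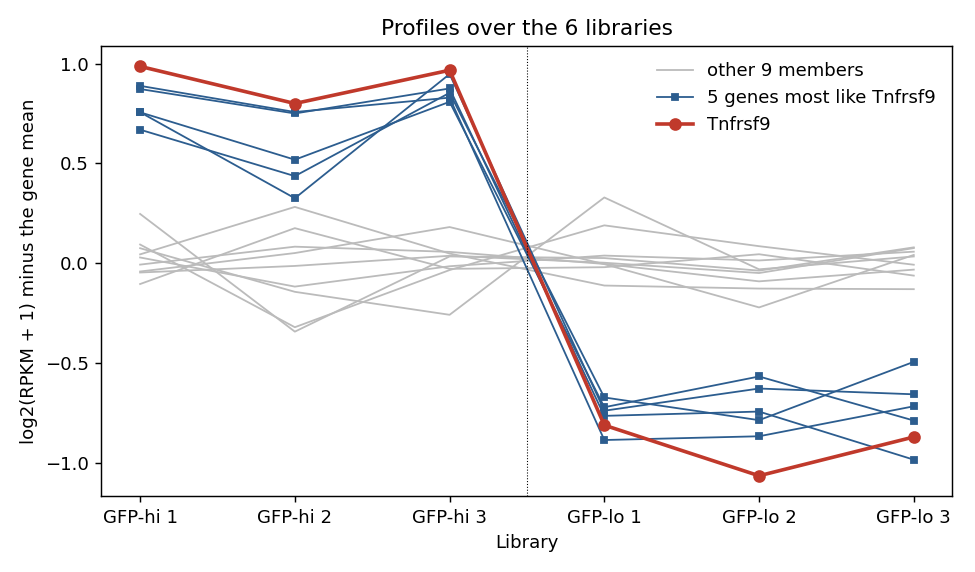
log2(RPKM + 1) minus the gene's mean in each of the 6 libraries for Tnfrsf9 (red), the 5 genes most like it (blue) and the other 9 members (grey); lines join the values of 1 gene, and the libraries of a group have no order. Tnfrsf9 and the 5 like genes are high in the 3 GFP-hi libraries and low in the 3 GFP-lo libraries, while the other members stay near 0.

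Tnfrsf4 and Tnfrsf18 encode OX40 and GITR, costimulatory receptors that regulatory T cells also carry at high levels. The genes are direct neighbours on chromosome 4 (chr4:156013595-156016613 and chr4:156026322-156028894, GRCm38.p6), yet their levels were far apart. Tnfrsf4 had 1.63, 0.971 and 1.40 RPKM in GFP-hi and 1.81, 1.61 and 1.45 RPKM in GFP-lo libraries. The groups overlapped, and GFP-hi replicate 2 was the lowest library. The log2 fold change was -0.18 with a 95% interval from -0.44 to 0.09, and without both replicates 2 it was -0.06. Tnfrsf18 had 14.2, 17.4 and 15.0 RPKM against 15.1, 15.8 and 14.6 RPKM, with a log2 fold change of 0.03 and an interval from -0.16 to 0.21. Its highest library was GFP-hi replicate 2. Without that library the fold change was -0.05, and without both replicates 2 it was -0.03.

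Of 5 markers of regulatory T cells, Ikzf2 and Ctla4 were listed, and their sum was 4.57 to 6.84 RPKM in GFP-hi and 2.37 to 2.90 RPKM in GFP-lo libraries. Ikzf2, which encodes the transcription factor Helios, rose with a log2 change of 1.03 (adjusted p = 0.0025 by limma). Ctla4, an inhibitory receptor gene, had a log2 change of 0.53 (adjusted p = 0.16 by limma). Foxp3, Il2ra, Lrrc32 and the CD4 T-cell markers Cd4 and Zbtb7b were not found by symbol among the listed genes. The part of such cells in the Tnfrsf9 result was not tested. Among markers of other cells, the 2 listed myeloid markers summed to 18.8 to 24.65 RPKM in GFP-hi and 18.84 to 20.97 RPKM in GFP-lo libraries. Nearly all of the myeloid sum was Cst3, while Itgam was at most 0.431 RPKM. The 2 listed NK-cell markers summed to 5.71 to 8.61 RPKM against 6.34 to 8.34 RPKM, nearly all of it Eomes, while Klrk1 was lower in every GFP-hi library (0.258, 0.216 and 0.469 RPKM) than in any GFP-lo library (0.479, 0.726 and 0.652 RPKM). The 3 listed thymocyte markers summed to 19.5 to 21.84 RPKM against 19.55 to 22.76 RPKM, most of it Cd1d1, with Rag1 at most 0.673 RPKM. Among them Dntt was lower in every GFP-hi library (log2 change -0.39, adjusted p = 0.083 by limma). The B-cell sum did not overlap between the groups and is given with Tnfrsf13b.

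Cd27, the gene of a costimulatory receptor that naive T cells display, was the most abundant member. It had 80.2, 82.1 and 85.1 RPKM in GFP-hi and 83.0, 80.0 and 87.4 RPKM in GFP-lo libraries. The groups overlapped throughout, with a log2 fold change of -0.02 and a 95% interval from -0.14 to 0.11. Its level was above 97.3% of all listed genes, and its spread within groups was smaller than that of most, above 16.8% of tested genes. Cd27 made up 43.9% to 48.2% of the summed RPKM of the 10 members in a library. Tnfrsf9 made up 3.54% to 4.10% of that sum in GFP-hi and 0.611% to 0.793% in GFP-lo libraries.

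Tnfrsf1a and Tnfrsf1b encode the receptors for TNF itself, TNFR1 with a death domain and TNFR2 without one. Tnfrsf1b had 22.4, 20.1 and 21.7 RPKM in GFP-hi and 22.5, 22.1 and 22.8 RPKM in GFP-lo libraries, a log2 fold change of -0.07 with an interval from -0.20 to 0.06. Tnfrsf1a had 9.42, 10.1 and 9.89 RPKM against 9.45, 8.83 and 9.24 RPKM, a log2 fold change of 0.09 with an interval from -0.04 to 0.22. Both sets of groups overlapped. Tnfrsf1b was more abundant per length than Tnfrsf1a in all 6 libraries.

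Fas, the death receptor CD95 that triggers apoptosis when bound by Fas ligand, was the only member besides Tnfrsf9 whose groups did not overlap. It had 14.8, 17.7 and 14.9 RPKM in GFP-hi and 13.2, 13.05 and 13.02 RPKM in GFP-lo libraries. The GFP-lo libraries were close together, and GFP-hi replicate 2 was the highest of all. The means were 15.8 ± 1.62 RPKM and 13.1 ± 0.0955 RPKM (SD, n = 3 each), the ratio of means was 1.21, and on the log2 scale the change was 0.25 (SE 0.073, interval 0.08 to 0.42). It was not among the called genes, and 9.69% of tested genes had a larger absolute log2 fold change. Without GFP-hi replicate 2 the fold change was 0.17, and without both replicates 2 it was 0.17. Fas lies on chromosome 19, and the 238 bases before the gene (chr19:34290409-34290646, plus strand, GRCm38.p6) hold 1 AP-1 match, in capitals, and are shown for comparison with the Tnfrsf9 windows:
Fas: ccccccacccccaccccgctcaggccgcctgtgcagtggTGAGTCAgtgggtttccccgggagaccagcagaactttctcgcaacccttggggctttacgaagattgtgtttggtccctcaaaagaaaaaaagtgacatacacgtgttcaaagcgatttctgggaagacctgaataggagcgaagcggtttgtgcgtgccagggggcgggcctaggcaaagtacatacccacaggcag

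Tnfrsf25 encodes DR3, a death domain receptor of T cells for the ligand TL1A, and Tnfrsf14 encodes HVEM, a receptor that binds both TNF superfamily ligands and the inhibitory receptor BTLA. Tnfrsf25 had 8.44, 9.06 and 10.01 RPKM in GFP-hi and 8.68, 7.33 and 8.997 RPKM in GFP-lo libraries, with a log2 fold change of 0.13 and an interval from -0.08 to 0.33. Tnfrsf14 had 7.13, 4.399 and 6.01 RPKM against 5.97, 5.67 and 6.24 RPKM, with a log2 fold change of -0.04 and an interval from -0.35 to 0.27. For Tnfrsf14 the GFP-hi libraries held both the highest and the lowest value, and its SD within groups exceeded the SD of 94.3% of tested genes. The lowest value was that of GFP-hi replicate 2. Without that library the fold change was 0.12, and without both replicates 2 it was 0.09.

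Tnfrsf26, a mouse receptor of the same superfamily, lies in a cluster on chromosome 7 beside Tnfrsf22 and Tnfrsf23, decoy receptors for TRAIL. It had 16.8, 14.3 and 13.2 RPKM in GFP-hi and 20.3, 15.6 and 16.3 RPKM in GFP-lo libraries, with a log2 fold change of -0.22 and an interval from -0.48 to 0.04. The groups overlapped, and GFP-lo replicate 1 was the highest library. At each replicate number the GFP-hi value was below the GFP-lo value, though no label pairs these numbers. Tnfrsf22 had 8.0, 8.37 and 8.56 RPKM against 10.9, 10.7 and 9.33 RPKM (log2 change -0.28, adjusted p = 0.072 by limma). Tnfrsf23 had 0.944, 1.15 and 1.03 RPKM against 1.22, 1.30 and 1.25 RPKM (log2 change -0.14, adjusted p = 0.34 by limma). For both neighbours the GFP-hi libraries lay below the GFP-lo libraries, and neither passed the test. The 3 genes are related in sequence, and how reads shared between them were counted is not given in the sources used here, so their separate levels are uncertain.

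By mean RPKM over the 6 libraries the order of the members was Cd27, Tnfrsf1b, Tnfrsf26, Tnfrsf18, Fas, Tnfrsf1a, Tnfrsf25, Tnfrsf14, Tnfrsf9 and Tnfrsf4. The ranges over libraries were separate between Cd27 and Tnfrsf1b, between Fas and Tnfrsf1a and between Tnfrsf25 and Tnfrsf14, and overlapped between all other neighbours in the order. Tnfrsf26 was above Tnfrsf18 in 3 of 6 libraries, and Tnfrsf18 was above Fas in 4 of 6. Tnfrsf9 was the least abundant of the 10 members in each GFP-lo library and stood in place 8, above Tnfrsf14 and Tnfrsf4, in each GFP-hi library. The summed RPKM of the 10 members was 182.5 to 184.4 in GFP-hi and 171.1 to 181.5 in GFP-lo libraries. Without Tnfrsf9 it was 175.0 to 177.1 in GFP-hi and 170.1 to 180.1 in GFP-lo libraries, so that the groups overlapped.

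**Figure D3:**
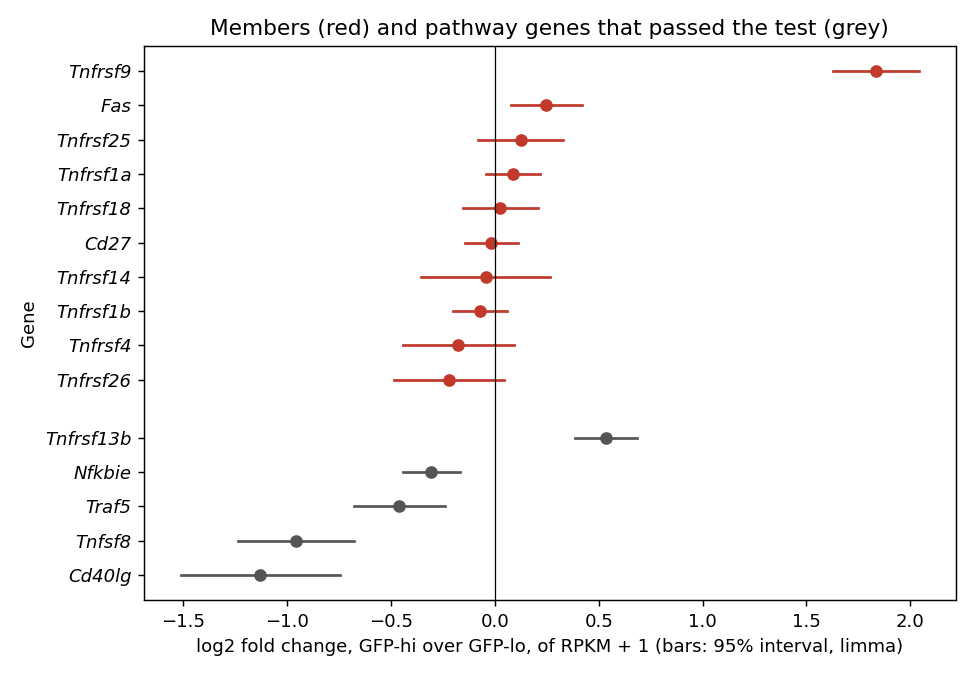
log2 fold change of RPKM + 1, GFP-hi over GFP-lo, with 95% intervals from limma, for the 10 members (red) and the 5 genes of the pathway lists with an adjusted p under 0.05 (grey). Tnfrsf9 stands at 1.83, Fas at 0.25, and the intervals of the other 8 members include 0.

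The other genes of the pathway were taken from 4 lists, of which 61 genes were listed and 59 tested. Of these 59, 5 passed the test (limma adjusted p under 0.05), 1 higher and 4 lower in GFP-hi, against 3.95% of all genes tested. Among the receptors outside the members, 6 were tested, 1 was higher and none was lower. Among the ligands, 6 were tested, none was higher and 2 were lower. Of 32 adaptors and proximal signalling genes 1 was lower, and of 15 NF-kB genes 1 was lower, with none higher in either list. The lists were chosen with earlier results of these data known, so nothing is read from these counts.

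The receptor that rose was Tnfrsf13b, which encodes TACI, a receptor for BAFF and APRIL known mainly from B cells. It had 10.8, 11.5 and 11.1 RPKM in GFP-hi and 7.82, 7.45 and 6.81 RPKM in GFP-lo libraries. The groups were far apart relative to their spread, with a log2 change of 0.53 (SE 0.064, adjusted p = 0.0047 by limma). Without both replicates 2 the fold change was 0.52 and the limma adjusted p was 0.057. The 3 listed of 6 B-cell markers summed to 12.6 to 14.2 RPKM in GFP-hi and 11.01 to 11.4 RPKM in GFP-lo libraries. Nearly all of that sum was Cd79b, which did not pass the test (log2 change 0.26, adjusted p = 0.075 by limma). Ms4a1 was at most 0.597 RPKM and Cd22 at most 0.394 RPKM, and both overlapped between the groups. The part of B cells in the Tnfrsf13b result was not tested.

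Of the ligands of the members, Tnf and Lta were tested. Tnf, the ligand of TNFR1 and TNFR2, had 3.17, 5.08 and 2.84 RPKM in GFP-hi and 3.29, 6.33 and 3.84 RPKM in GFP-lo libraries (log2 change -0.21, adjusted p = 0.66 by limma). Lta, the gene of lymphotoxin alpha, had a log2 change of 0.11 (adjusted p = 0.54 by limma). Replicate 2 was the highest library of its group for Tnf in both groups. Tnf was lower in GFP-hi than in GFP-lo at each replicate number, though no label pairs these numbers. Tnfsf9, the gene of the 4-1BB ligand, was not found by symbol among the listed genes, nor were Tnfsf4, Tnfsf18, Tnfsf14, Tnfsf15, Cd70 and Fasl.

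The 2 ligands that fell were Cd40lg and Tnfsf8, which bind CD40 and CD30. Cd40lg had 16.5, 22.7 and 14.2 RPKM in GFP-hi and 37.0, 46.8 and 35.4 RPKM in GFP-lo libraries, a log2 change of -1.13 (SE 0.17, adjusted p = 0.011 by limma). Tnfsf8 had 7.52, 8.68 and 10.6 RPKM against 17.2, 16.8 and 20.6 RPKM, a log2 change of -0.96 (SE 0.12, adjusted p = 0.0056 by limma). Every GFP-hi library was below every GFP-lo library for both genes. Without both replicates 2, Tnfsf8 had a log2 change of -0.99 with a limma adjusted p of 0.066.

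Tnfsf11, the gene of the ligand RANKL, lay under the filter on low values, with a mean of 0.833 RPKM, and is named after its values were seen. It had 1.71, 1.65 and 1.29 RPKM in GFP-hi and 0.149, 0.110 and 0.085 RPKM in GFP-lo libraries. Each kilobase of transcript held 48.7, 55.9 and 38.0 reads in GFP-hi and only 5.36, 3.13 and 2.22 reads in GFP-lo libraries. In the fit with no filter, over 11162 genes, it rose with a log2 change of 1.19 (SE 0.093, adjusted p = 0.0015 by limma). The ratio of mean RPKM was 13.5, which rests on few reads in GFP-lo cells.

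Among the adaptors, Traf5, which binds the tails of CD27 and OX40 among others, fell. It had 10.1, 10.3 and 9.43 RPKM in GFP-hi and 16.5, 12.7 and 13.1 RPKM in GFP-lo libraries (log2 change -0.46, SE 0.095, adjusted p = 0.038 by limma). Leaving out any 1 library other than GFP-lo replicate 1 ended this call, with limma adjusted p values up to 0.118. Without both replicates 2 the log2 change of Traf5 was -0.55 (adjusted p = 0.102 by limma). Traf1, an adaptor of TNFR2 and 4-1BB signalling, had 24.2, 25.7 and 26.8 RPKM against 31.5, 29.9 and 30.1 RPKM and did not pass (log2 change -0.25, adjusted p = 0.057 by limma). Traf2, the principal adaptor of 4-1BB, had a log2 change of -0.03 (adjusted p = 0.88 by limma). Casp8, the caspase that Fas activates through Fadd, had a log2 change of 0.10 (adjusted p = 0.32 by limma), and Fadd one of -0.09 (adjusted p = 0.64 by limma).

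In the NF-kB list, Nfkbie, which encodes the inhibitor IkB epsilon, fell. It had 8.15, 8.91 and 8.20 RPKM in GFP-hi and 10.9, 10.2 and 10.9 RPKM in GFP-lo libraries (log2 change -0.31, SE 0.059, adjusted p = 0.030 by limma). The call was lost without any 1 library other than GFP-hi replicate 2, with limma adjusted p values up to 0.122. Without both replicates 2 the log2 change of Nfkbie was -0.37 (adjusted p = 0.064 by limma). Nfkb2, the subunit processed in alternative NF-kB signalling, had a log2 change of -0.29 (adjusted p = 0.057 by limma) and Rela, the main canonical subunit, one of -0.22 (adjusted p = 0.065 by limma). Neither passed.

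The log2 fold change was negative for 47 of the 59 pathway genes, and for 14 of the 15 NF-kB genes, against 44.5% of all genes tested. The medians were -0.11 for the NF-kB list, -0.05 for the adaptors, -0.22 for the ligands and -0.07 for the other receptors, against 0.02 for all genes tested. With median, quantile and trimmed mean of M values scaling the number stayed at 47 or 48 of 59 and at 14 of 15. The negative share of all genes tested rose to 46%, 49.7% and 52.6% with these scalings. Without GFP-lo replicate 1 the numbers were 35 of 59 and 10 of 15, against 43.4% of all genes tested. Most of these genes did not pass the test singly. Of the genes known to respond to tissue dissociation and heat shock, 12 of the 15 tested were negative as well, with a median of -0.30. Of these, 1 passed, Socs3, an inhibitor of cytokine signalling (log2 change -0.93, adjusted p = 0.021 by limma). Their part in the pathway values was not tested.

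**Figure D4:**
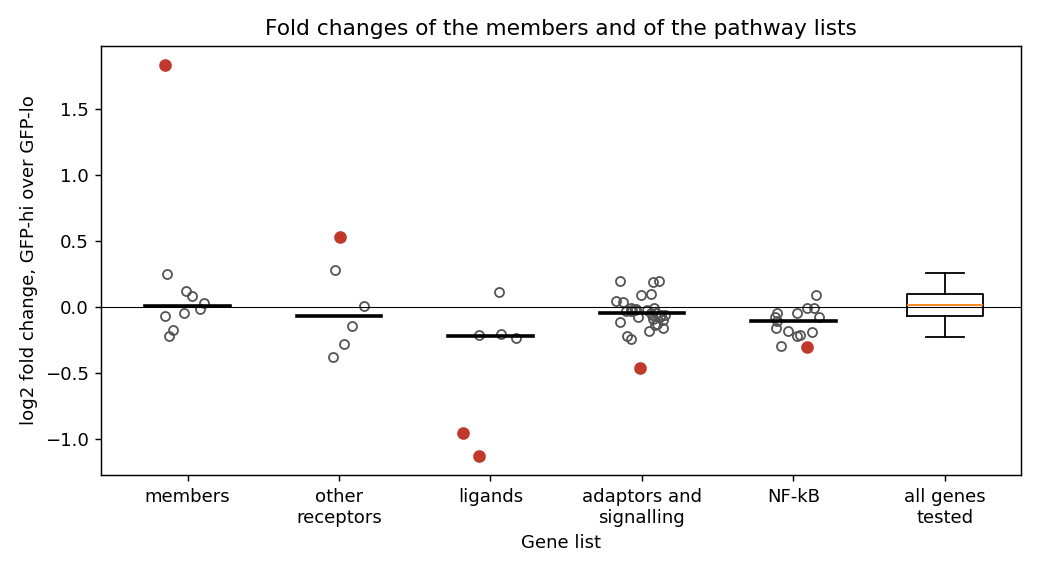
log2 fold changes, GFP-hi over GFP-lo, of the genes tested in the members and in the 4 pathway lists; filled red points have a limma adjusted p under 0.05, black bars are list medians, and the box shows all 9351 genes tested (median, quartiles, whiskers from the 5th to the 95th percentile). The member at the top is Tnfrsf9 at 1.83, and the 2 lowest points are the ligands Cd40lg and Tnfsf8 at -1.13 and -0.96.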

How the data were processed

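Values deposited by the authors were RPKM, per the file headers, with 1 column for each of the 6 libraries; STAR and mm10 are named in the submitters' processing notes, and the read counter, the annotation and the rule for listing genes are not given in the sources used here. Per the labels' protocols, RNA of sorted cells was made into libraries with the SMART-seq v4 and Nextera XT kits. Depth was recovered from 727 genes with 1 transcript in GENCODE M21: with RPKM times length scaled to reads, 91.5% to 93.4% of low values lay within 0.1 of a whole read.

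The members and lists were chosen with earlier results of these data known. Genes with a mean of at least 1 RPKM were tested on log2(RPKM + 1) with limma 3.58.1 (R 4.3.3; lmFit, eBayes with trend, two-sided, Benjamini-Hochberg over all genes tested), which was also tested on simulated data. Replicate numbers follow record order, no label ties a GFP-hi to a GFP-lo library, and no paired fit was run. The text names the members, their ligands, pathway genes with an adjusted p under 0.05 and the 5 genes most like Tnfrsf9, passing over predicted genes. Other genes named were chosen after their values were seen. Promoter windows and positions come from RefSeq on GRCm38.p6, the build that mm10 names. Alternatives changed the pseudocount, filter, scaling, variance model and libraries. No column of values was left out.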

Additional observations from a re-analysis of the deposited data

How the results depend on the processing

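As a description, the log2 fold change of Tnfrsf9 was 1.76 to 2.40 over 16 alternatives; its mean was too low for the filter at 5 RPKM. Tnfrsf18 was negative in 4 of 17 alternatives, and Tnfrsf14 and Cd27 were positive in 3 of 17 each. The signs of the other members did not change. Fas was called in 1 of 17 alternatives, that with array quality weights. The number of genes called was 369 of 9351. It was 202 with a mean RPKM of at least 5, where fewer genes were tested, 1282 with array quality weights, 90 without both replicates 2, and 134 to 298 without 1 library. The number of pathway genes called was 5. It was 8 with quantile normalization, 13 with array quality weights, 1 (Cd40lg) without both replicates 2, and 3 to 4 without 1 library. For the other settings the cause was not tested. No fit with a replicate block was run, because the numbers come from record order and no label pairs the libraries. Across genes, deviations from the group means correlated at 0.101, 0.401 and 0.637 between libraries of the same number and at -0.519 to 0.157 between the others. GFP-hi replicates 2 and 3 correlated best with the GFP-lo library of their own number. GFP-hi replicate 1 correlated at 0.157 with GFP-lo replicate 3 and at 0.101 with GFP-lo replicate 1. Single genes such as Ccr7 and Tnfaip3 were nonetheless highest in the replicates 1 of both groups. By number, GFP-hi was below GFP-lo each time for Tnfrsf4, Tnfrsf1b, Tnfrsf26 and Tnf, whose groups overlapped. Whether the libraries were paired was not tested. If the libraries were collected in pairs, the errors given here would include differences between pairs. Depth limits Tnfsf11, with 2.22 to 5.36 reads per kilobase in GFP-lo libraries.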
